A study of Homo sapiens with 2 samples.

Results

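The genes described here are 10 components of the machinery that makes microRNAs and carries out silencing by them: DROSHA, XPO5, DICER1, PRKRA, AGO1, AGO2, AGO3, GEMIN4, TNRC6A and TNRC6C. They were chosen by name, with earlier results of these data known. Every probe was taken whose gene symbol on the array, brought to its current form, was one of the 10. The array names the Argonautes by their older symbols EIF2C1, EIF2C2 and EIF2C3 and TNRC6A as TNRC6. In all, 11 of the 24267 probes matched, for 9 of the 10 genes. No probe in the annotation used here is named DROSHA, so DROSHA was not analysed here.

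KYSE-170, a cell line from a human oesophageal squamous carcinoma, was transfected with an oligoribonucleotide for miR-210 or with one called ncRNA, whose sequence the labels do not give. Both groups were the same line, grown in the same serum-containing medium and transfected with the same reagent, and the labels give neither a dose nor a time after transfection. Total RNA from each went onto a Toray oligonucleotide chip in 1 colour, Cy5, with 1 array per group. Every value is therefore a single measurement, no difference has a replicate check and no p-value was computed. The comparison asks how the machinery's transcripts differ between a culture given additional miR-210 and one given ncRNA.

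A microRNA is cut from a long nuclear transcript by DROSHA, exported as a hairpin by exportin 5 and cut again in the cytoplasm by Dicer. One strand of the resulting duplex is loaded into an Argonaute protein, and it finds messages mainly through its seed, the bases near its 5′ end. Argonaute binds a TNRC6 protein, also called GW182, which brings in the enzymes that shorten the poly(A) tail, remove the cap and repress translation. RefSeq (GRCh38.p14) gives the miR-210 hairpin at chr11:568089-568198 and 2 mature arms, all on the minus strand. The hairpin is shown because it is the substrate of DROSHA, exportin 5 and Dicer, with both arms in capitals, and the arms are shown with their seeds, bases 2 to 8, in capitals. The labels do not say which arm the oligoribonucleotide carried. The 3p arm is at chr11:568112-568133 and the 5p arm at chr11:568150-568171.
MIR210 hairpin: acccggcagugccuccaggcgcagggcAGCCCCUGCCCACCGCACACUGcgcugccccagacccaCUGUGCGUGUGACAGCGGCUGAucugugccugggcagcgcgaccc
hsa-miR-210-3p: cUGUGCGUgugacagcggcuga
hsa-miR-210-5p: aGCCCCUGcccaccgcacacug
Of the 2370 mature human microRNA names in that table, only hsa-miR-210-3p carries the seed UGUGCGU, so it has no seed family there. A message pairs with this seed through the letters ACGCACA. Message sequences were not used here, so the machinery's transcripts were not searched for them.

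Median intensities were 39 for ncRNA and 36 for miR-210, and the upper quartiles were 162 and 150. After quantile normalization of the 2 arrays, 6684 genes had a probe at or above the median level of all probes, an intensity of 37.5, and are called kept. The log2 ratio below is always miR-210 minus ncRNA after that normalization, while intensities are as deposited. The only error to be had is the spread between probes of 1 gene: over 251 genes with 2 or more kept probes, a single probe's log2 ratio had a SD of 0.44 around its gene. That SD leaves out any difference between cultures or arrays. The log2 ratios of the 2 brightest kept probes of a gene had a Spearman correlation of only 0.29. Across all kept genes the log2 ratio had a SD of 0.535. A ratio past 0.44 is therefore not by itself a resolved difference. FGFRL1, a reported miR-210 target, read 277 with ncRNA and 21 with miR-210. The reported targets GPD1L (449 and 177) and ISCU (281 and 192) also had lower intensities on the array labelled miR-210. Their log2 ratios were -1.21 and -0.43, and that of ISCU lay inside the probe spread. Of the squamous markers, 8 of 9 named on the array were kept. TP63, which defines the squamous lineage, was not, at 57 and 22. Of all genes measured, 6684 of 12405 were kept. Of the other markers, 1 of 6 fibroblast, 2 of 5 endothelial and 1 of 6 leukocyte markers were kept. Those kept were DCN (183 and 181), VWF (126 and 103), KDR (66 and 36) and CD79A (133 and 126). PTPRC, the leukocyte marker CD45, read 9 and 10. In RNA from whole cultures, fewer cells expressing a gene and less of its RNA per cell cannot be told apart.

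Most of the machinery genes read lower on the miR-210 array. By their brightest probes TNRC6C, PRKRA and GEMIN4 lay lowest, though PRKRA lay less than the probe spread below DICER1. Among the 9 genes measured, 7 were kept and 6 of those 7 had a log2 ratio under 0, where 48.6% of all kept genes did. XPO5 and TNRC6A did not reach the level filter and had ratios above 0. The median log2 ratio was -0.50 over the 7 kept genes and 0.007 over all kept genes. Over the 9 genes without the filter it was -0.42, beside 0.003 for all 12405 genes measured, and 6 of the 9 were under 0, where 47.3% of all genes were. At least 2-fold lower was 1 of the 7, TNRC6C, where 3.19% of kept genes were, and none was at least 2-fold higher, where 3.02% of kept genes were. By more than the probe spread of 0.44, 4 of the 7 were lower (TNRC6C, GEMIN4, PRKRA and DICER1), where 16.8% of kept genes were. GEMIN4 was kept only through its ncRNA value, so the counts were also made over genes at or above 37.5 on both arrays, a setting chosen after the data were seen. Of the 6 machinery genes left, 3 were lower by more than the probe spread, where 15.7% of such genes were. At least 2-fold lower was 1 of the 6, where 2.67% were, and the median was -0.46.

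**Figure D1:**
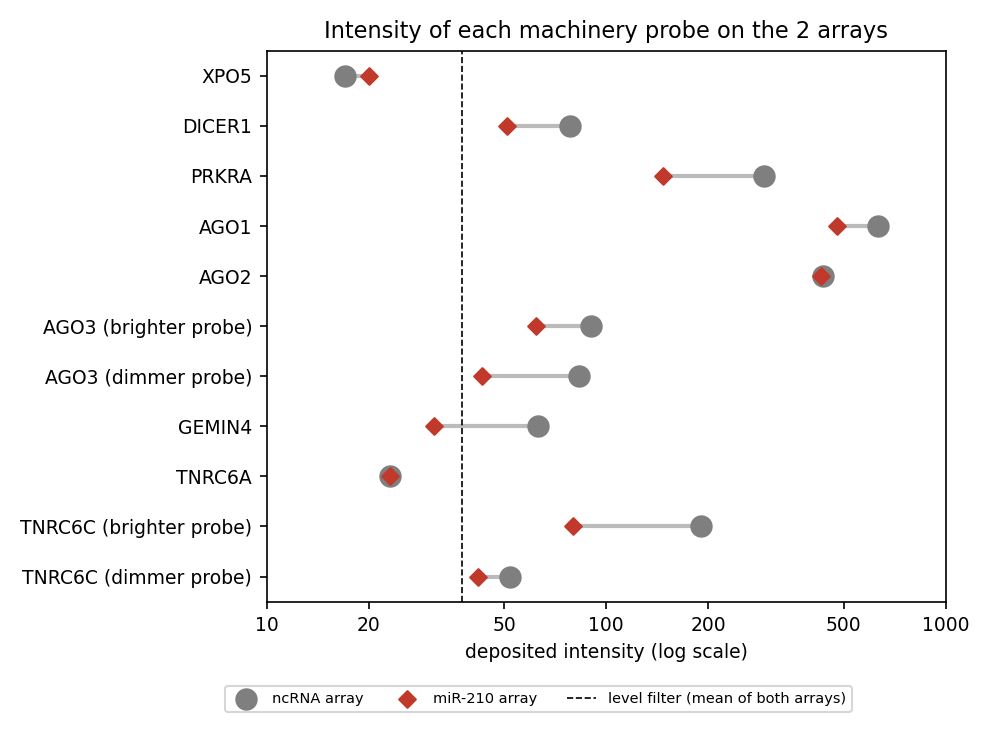
Deposited intensity (log axis) of each of the 11 probes with ncRNA (grey circles) and with miR-210 (red diamonds), 1 array per group, with no error bars because there are no replicates; the dashed line marks the level filter of 37.5, applied to the mean of both arrays after normalization. The grey circle lies to the right of the diamond for DICER1, PRKRA, AGO1, GEMIN4 and both probes of AGO3 and TNRC6C, the 2 symbols nearly or fully coincide for AGO2 and TNRC6A, and XPO5 reads 17 and 20.

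Of the genes that make and export the hairpin, DROSHA had no named probe and XPO5, which encodes exportin 5, had the dimmest of the 11 probes. The XPO5 probe (H300017522) read 17 with ncRNA and 20 with miR-210, a log2 ratio of 0.27. Its level exceeded that of only 29.8% of probes, so its ratio rests on dim signal.

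DICER1 encodes the ribonuclease that cuts the hairpin to its mature length. Its probe (H200010259) read 78 with ncRNA and 51 with miR-210, 1.42-fold lower at a log2 ratio of -0.50. That exceeds the probe spread by little, and 14.2% of all kept genes had a ratio as low or lower. With an offset of 10 added before log2 the ratio was -0.43, inside the probe spread.

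PRKRA encodes PACT, a double-stranded RNA-binding protein that partners Dicer and also activates the kinase PKR. Its probe (opHsV0400005423) read 291 and 147, so that the miR-210 array was 1.82-fold lower at a log2 ratio of -0.86. Among the 7 kept genes it joins a large difference with a high level, above 78.5% of all probes, and 4.97% of kept genes had a ratio as low or lower. TARBP2, the other double-stranded RNA-binding partner of Dicer, read 29 and 31 and did not reach the filter. PKR itself, EIF2AK2, has no named probe in the annotation used here.

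The Argonaute genes, whose proteins hold the microRNA, did not share 1 ratio. AGO1 (H200002389) read 632 with ncRNA and 479 with miR-210, 1.23-fold lower at a log2 ratio of -0.30. AGO2 (H200014538), the Argonaute known for cutting its target, read 434 and 429. Its log2 ratio was 0.12, and -0.02 without normalization, so its direction depends on the scale. Both ratios lay inside the probe spread.

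AGO3 had 2 kept probes, and both read lower on the miR-210 array. The brighter (H300021838) read 90 and 62, a log2 ratio of -0.42, and the dimmer (H300022869) read 83 and 43, a log2 ratio of -0.84. The probes differed by 0.41. Their mean of -0.63 lay beyond the probe spread, which is that of a single probe and not of a mean, while the brighter alone did not. AGO4, the remaining Argonaute, read 18 and 11, under the filter. In RefSeq, AGO4, AGO1 and AGO3 are consecutive protein-coding genes on chromosome 1, and their log2 ratios were -0.71, -0.30 and -0.42. AGO2 lies elsewhere. Argonaute genes are alike in sequence, and how far the probes tell them apart was not tested.

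GEMIN4 encodes a protein of the SMN complex, which assembles splicing ribonucleoproteins, and it has also been found with Argonaute. Its probe (H300004754) read 63 with ncRNA and 31 with miR-210, 1.91-fold lower at a log2 ratio of -0.93, and 3.99% of kept genes had a ratio as low or lower. It passed the filter only through its ncRNA value, since 31 lies under 37.5. Without normalization it passed 2-fold, at -1.02, which made 2 of the 7 kept genes at least 2-fold lower, where 4.76% of all kept genes were on that scale. With an offset of 10 it was -0.76. The rest of the SMN complex did not share this ratio. Of its 6 kept genes, 2 had ratios under 0, where 48.6% of all kept genes did. Their median was 0.17, which turned to -0.02 without normalization. DDX20, the helicase also called GEMIN3, read 428 and 493, a log2 ratio of 0.33 and the highest of them. GEMIN7 was the lowest at -0.55 (47 and 30), and was kept only through its ncRNA value. The ratios of SMN1 and SMN2 were 0.21 and -0.05, and these near-identical genes may share signal.

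TNRC6C, which encodes a GW182 protein, had the lowest ratio of the machinery genes at 1 of its 2 probes. The brighter probe (H300022007) read 190 with ncRNA and 80 with miR-210, 2.19-fold lower at a log2 ratio of -1.13. Only 2.45% of kept genes had a ratio as low or lower. The dimmer probe (H200018973) read 52 and 42, a log2 ratio of -0.22. The probes differed by 0.92, more than the probe spread, and their mean of -0.67 was short of 2-fold. The paralog TNRC6A (H300022693) read 23 on both arrays, under the filter. TNRC6B read 13 and 28, also under the filter, so its log2 ratio of 1.16 rests on values near the bottom of the range.

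**Figure D2:**
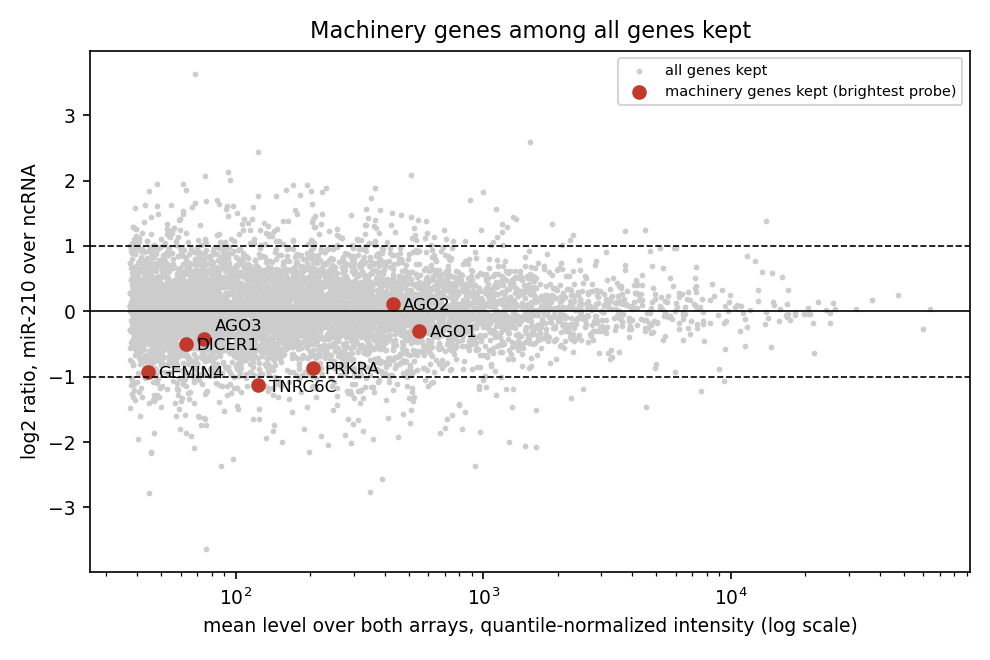
Log2 ratio of miR-210 over ncRNA against mean level over both arrays (log axis, quantile-normalized intensity) for the 6684 genes kept (grey) and the 7 machinery genes kept (red, brightest probe); dashed lines mark 2-fold and there are no error bars. TNRC6C lies beyond the lower line, PRKRA and GEMIN4 just inside it, and AGO2 alone of the 7 lies above 0.

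The 7 kept genes are spread over the whole range of levels. DICER1 and GEMIN4 fell in the dimmest of 4 equal groups of kept genes by level, AGO3 and TNRC6C in the second, AGO2 and PRKRA in the third and AGO1 in the brightest. Over all kept genes the SD of the log2 ratio was 0.58 in the dimmest group and 0.47 in the brightest. At least 2-fold lower were 4.19% of genes in the dimmest group, 2.93% in the second, 3.17% in the third and 2.45% in the brightest. The ratio of GEMIN4 is thus set against a wider scatter than that of AGO1.

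The order of the kept genes, from the lowest ratio, was TNRC6C, GEMIN4, PRKRA, DICER1, AGO3, AGO1 and AGO2. Each neighbouring pair in this order lay closer together than the probe spread of 0.44, so that no neighbours can be ranked. Over the settings tried, PRKRA ranged from -0.99 to -0.82, AGO1 from -0.40 to -0.28 and TNRC6C from -1.25 to -0.67. TNRC6C was the only gene of the 7 that moved by more than the probe spread. Without normalization the median of all kept genes was -0.12, and the machinery median of -0.61 on that scale is to be read against it.

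**Figure D3:**
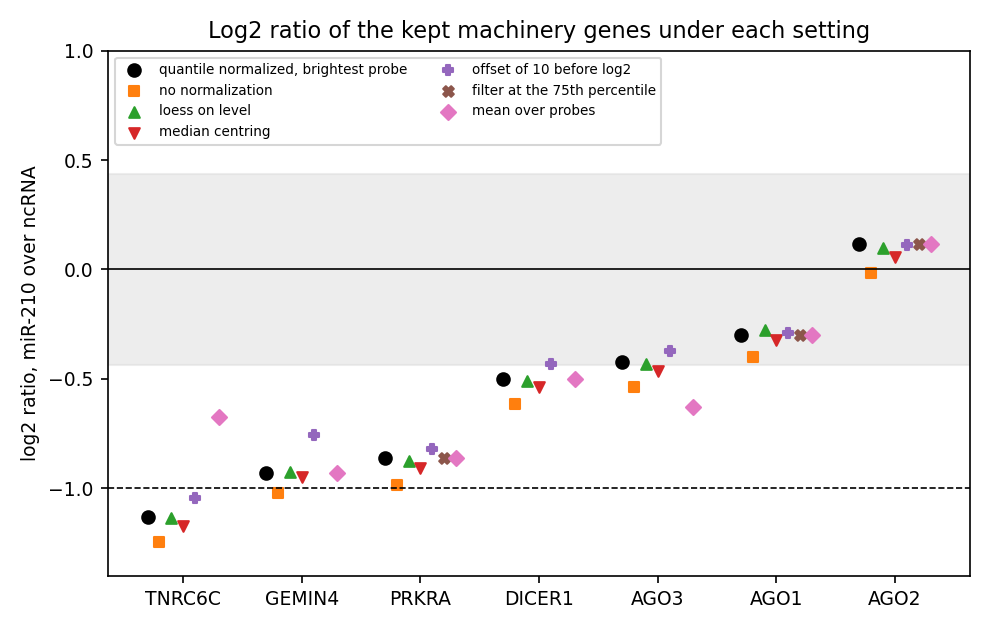
Log2 ratio of miR-210 over ncRNA for the 7 machinery genes kept, under 7 settings (symbols in the legend; black circles are the values given in the text); the grey band is the probe spread of 0.44 on either side of 0 and the dashed line marks 2-fold lower. TNRC6C stands at -1.13 at its brighter probe and at -0.67 as the mean of its 2 probes, GEMIN4 crosses the line without normalization, and AGO2 changes sign there.

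The promoters of TNRC6C, PRKRA and GEMIN4 are shown because their brightest probes had the 3 lowest ratios on these same 2 arrays. TNRC6C was that low at only 1 of its 2 probes. RefSeq (GRCh38.p14) has promoter sequences for 9 of the 10 genes. AGO2 has no entry. Each runs from 250 bases before the most upstream start in the table to 50 after it, 5′ to 3′ along the gene. The motifs searched, on both strands, are in capitals where found. They were the GC box GGGCGG, the E-box CACGTG, the hypoxia response core ACGTG, which the E-box contains, the ETS motif CCGGAAG, the letters CCAAT of the CCAAT box and the TATA box letters TATAAA.
TNRC6C, chr17:77957307-77957606, plus strand: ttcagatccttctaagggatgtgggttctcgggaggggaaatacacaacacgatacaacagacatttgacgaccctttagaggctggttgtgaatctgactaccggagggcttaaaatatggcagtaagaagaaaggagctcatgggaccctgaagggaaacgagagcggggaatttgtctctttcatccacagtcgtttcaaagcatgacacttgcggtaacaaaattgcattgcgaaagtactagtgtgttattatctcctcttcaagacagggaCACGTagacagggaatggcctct
PRKRA, chr2:178451126-178451425, minus strand: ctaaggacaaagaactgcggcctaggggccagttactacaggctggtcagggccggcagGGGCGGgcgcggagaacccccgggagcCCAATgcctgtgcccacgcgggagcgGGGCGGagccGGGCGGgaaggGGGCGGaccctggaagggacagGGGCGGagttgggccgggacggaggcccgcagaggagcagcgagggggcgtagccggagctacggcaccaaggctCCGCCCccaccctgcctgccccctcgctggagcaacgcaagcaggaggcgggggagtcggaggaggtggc
GEMIN4, chr17:752215-752514, minus strand: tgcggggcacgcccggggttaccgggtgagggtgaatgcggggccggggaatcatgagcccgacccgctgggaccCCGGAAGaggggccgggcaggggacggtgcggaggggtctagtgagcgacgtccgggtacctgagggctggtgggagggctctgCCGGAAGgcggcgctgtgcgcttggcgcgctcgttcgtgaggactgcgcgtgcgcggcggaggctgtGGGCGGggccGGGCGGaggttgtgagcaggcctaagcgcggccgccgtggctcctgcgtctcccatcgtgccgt
No motif of those searched was in all 3 windows, and the GC box was in both PRKRA and GEMIN4. The TNRC6C window held 1 hypoxia core, found in 21.6% of all 27305 promoters, and no GC box. PRKRA held 6 GC boxes and 1 CCAAT, and GEMIN4 held 2 GC boxes and 2 ETS motifs. Among the machinery windows the hypoxia core was found only in TNRC6C. The other 3 motifs were not particular to the lowest genes. The windows of DICER1, DROSHA, XPO5, AGO1, AGO3 and TNRC6A also held a GC box. The ETS motif was also in AGO3 and TNRC6A, and CCAAT in DROSHA, AGO1 and TNRC6A. A GC box occurs in 44.5% of promoters, CCAAT in 35.7% and the ETS motif in 10.6%. Base composition differed as well: GC content was 46.3% for TNRC6C, 73.7% for PRKRA and 74.0% for GEMIN4, with a median of 58.3% over all promoters. These matches are letters in a window, and binding was not measured.

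The wider pathway was described by 8 lists of other processing and silencing genes. They hold 119 genes, of which 90 are named on the array and 75 were kept. Of these 75, 5 were at least 2-fold lower (6.67%) and 2 at least 2-fold higher (2.67%), beside the 3.19% and 3.02% of all kept genes. CNOT11, DCP2, GEMIN7 and LIMD1 were kept only through the array where they read higher. Without them 4 of 71 were at least 2-fold lower (5.63%), beside 2.67% of all genes at or above the filter on both arrays. The median log2 ratio of the 75 was -0.04 and 56.0% were under 0, beside 48.6% of all kept genes. Of the 8 list medians, those of the nuclear processing and deadenylation lists stayed under 0 in every setting tried, and each of the other 6 changed sign in at least 1. The lower readings of the machinery genes were therefore not matched in size by the pathway's median.

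In the nucleus, DGCR8, the RNA-binding partner of DROSHA, read 53 and 47, a log2 ratio of -0.07. The nuclear processing list had 9 kept genes, 7 of them under 0, beside 48.6% of all kept genes. Its median was -0.13. Its lowest was ADAR, which edits adenosines in double-stranded RNA, at 682 and 273 or 2.29-fold lower, and its highest was HNRNPA1 at 0.32 (721 and 822). The nuclear export list was closely grouped, with 5 kept genes between -0.01 (RANBP1, 2633 and 2334) and 0.29 (XPO1, 865 and 952), and its median of 0.06 turned to -0.04 without normalization.

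Genes of Dicer partners and of Argonaute loading went both ways. Of 13 kept genes, 7 were under 0, beside 48.6% of all kept genes, and the median was -0.11. The median turned to 0.19 over the 17 genes without a filter and to 0.11 over the 12 at or above it on both arrays. LIMD1, a LIM-domain protein found with Argonaute, read 64 and 26, 2.34-fold lower, but its log2 ratio was -0.98 with an offset of 10. It was kept only through its ncRNA value, since 26 lies under the filter. TSNAX, a subunit of the C3PO nuclease that removes passenger strand fragments, read 99 and 220, 2.40-fold higher. TSNAX was the only kept gene of this list at least 2-fold higher, where 3.02% of all kept genes were. LIMD1 was the only one at least 2-fold lower, where 3.19% of all kept genes were.

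The deadenylation list lay lowest of the 8, with 9 of 12 kept genes under 0, beside 48.6% of all kept genes, and a median of -0.36. TNRC6 proteins recruit these enzymes. CNOT9, a subunit of the CCR4-NOT deadenylase that contacts TNRC6 proteins, read 295 and 116, 2.35-fold lower. CNOT6L, a catalytic subunit, was the highest at 0.50 (50 and 66), and its other probe, under the filter, stood at -0.53. By more than the probe spread 5 of the 12 were lower and 1 was higher, beside 16.8% and 18.0% of all kept genes.

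Decapping and translational repression genes were split, with 5 of 11 kept genes under 0, beside 48.6% of all kept genes. Their median was 0.045, which turned to -0.12 without normalization and to -0.05 with median centring. The translation initiation helicase EIF4A2 read 1955 and 493, 3.58-fold lower, and 944 and 463 at its other kept probe, 1.88-fold lower. LSM5, of the LSM ring that binds deadenylated ends, read 228 and 68, 3.12-fold lower. DCP2, the decapping enzyme, was the highest at 0.80 (35 and 57), and was kept only through its miR-210 value.

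Among double-stranded RNA-binding genes and eIF2 kinases, 4 of 7 kept genes were under 0, beside 48.6% of all kept genes. The median was -0.14. It was 0.24 with the filter at the 75th percentile, where only 2 genes were left. EIF2S1, which encodes the eIF2 subunit that PKR phosphorylates, read 58 and 148, 2.75-fold higher, the highest ratio of any kept gene in the 8 lists. STAU2, a double-stranded RNA-binding protein, was the lowest of this list at -0.57 (107 and 67). The turnover and exosome list had no kept gene 2-fold apart, beside 3.19% of all kept genes lower and 3.02% higher. The 13 kept genes of this list ran from -0.71 for PARN, a poly(A)-specific ribonuclease (178 and 101), to 0.52 for EXOSC8 (375 and 495). Its median of -0.10 turned to 0.06 with the filter at the 75th percentile and to 0.009 with the mean over probes. The PIWI proteins are germ cell relatives of the Argonautes. PIWIL1, PIWIL2 and PIWIL4 read between 8 and 23 on both arrays, the range in which XPO5, TNRC6A and AGO4 also lay.

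**Figure D4:**
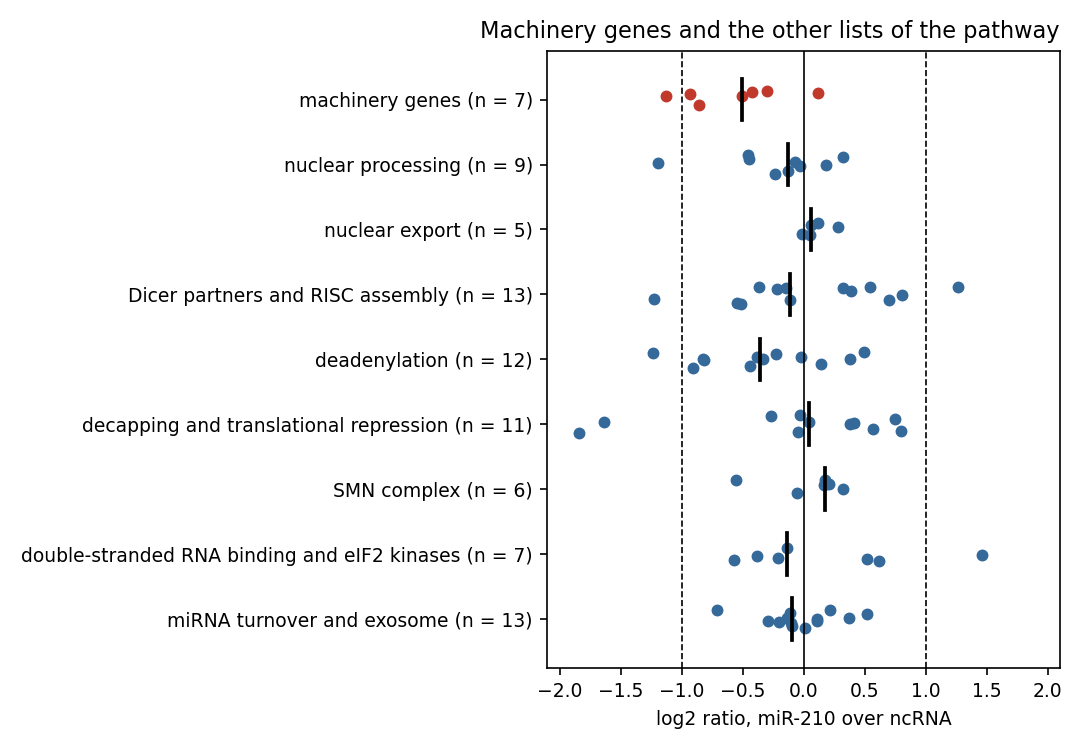
Log2 ratio of miR-210 over ncRNA for each kept gene (points, brightest probe) of the machinery (red) and of 8 other lists of the pathway (blue); vertical bars are list medians, dashed lines mark 2-fold, points are moved vertically at random for legibility and there are no replicates. The machinery median is -0.50, the deadenylation median -0.36, and the medians of the other 7 lists lie between -0.14 and 0.17.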

How the data were processed

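Total RNA of 2 cultures was measured on 1 array each. The deposited values are intensity on a linear scale, whole numbers from -8 to 65496. Values under 0 mean that a background was subtracted before deposit. For the scanner, background method and normalization that the authors used, nothing is given in the sources used here. Detection calls were not used.

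From these, log2 was taken for the 24177 probes above 0 on both arrays, and the arrays were quantile normalized with limma 3.58.1 in R 4.3.3, which was tested on simulated data. Quantile normalization gives both arrays the same distribution, so it removes a shift of all genes. Probes were kept at or above the median mean level, and a gene took its brightest kept probe. Gene symbols came from the platform annotation, with 13395 probes named. Any probe without a symbol or with several was left unnamed. The symbols of 2446 probes were updated through RefSeq synonyms. Summaries used Python 3.11.15 and pandas 2.3.3.

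All probes of the 10 genes were described. Other pathway genes were named if kept and at least 2-fold apart, if lowest or highest in their list, or as fixed direct partners. The genes and lists were chosen with earlier results of these data known. Alternatives were no normalization, loess on level, median centring, an offset of 10, no filter, a filter at the 75th percentile and the mean over probes, and, added after the data were seen, a filter on both arrays. Precision is limited by the number of arrays.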

Additional observations from a re-analysis of the deposited data

How the results depend on the processing

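The median of the machinery genes stayed under 0 in every setting tried, between -0.63 with the mean over probes and -0.30 with the filter at the 75th percentile, where AGO1, AGO2 and PRKRA were the 3 genes left. The count at least 2-fold lower was 1 with quantile normalization, 2 without normalization (TNRC6C and GEMIN4), 0 with the filter at the 75th percentile, which removes TNRC6C, and 0 with the mean over probes, where the dimmer TNRC6C probe enters. Of all kept genes, 213 of 6684 were at least 2-fold lower with quantile normalization and 318 of 6686 without normalization. With the filter at the 75th percentile 97 of 3467 were, and with the mean over probes 205 of 6684. No machinery gene was 2-fold higher in any setting. Of all kept genes, 202 of 6684 were with quantile normalization and 140 of 6686 without. Over all genes, 415 were at least 2-fold apart, 1736 with no filter, where 12405 genes were counted, and 192 with the filter at the 75th percentile. TNRC6C moved to -0.67 with the mean over probes, and AGO2 turned to -0.02 without normalization. No paired analysis was possible because each group has 1 array. Low signal limits XPO5, TNRC6A and GEMIN4 most.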
